A study of Mus musculus with 9 samples.

Results

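The genes described here are 10 antioxidant genes of the kind controlled by the transcription factor NRF2: Srxn1, Hmox1, Nqo1, Gclc, Gclm, Txnrd1, Slc7a11, Gsr, G6pdx and Prdx1. They were taken by name from the 33450 rows of a table of ovarian gene expression, and where a symbol had several rows the row with the highest mean value was used. Of the 10, 9 reached 1 FPKM in at least 1 group, and Slc7a11 did not. The list was chosen by name, with the FPKM of Srxn1 in these groups already known, so the differences of its members between groups are given as a description.

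Whole ovaries of C57BL/6J mice aged 15 weeks were sequenced, with 3 animals in each of 3 groups. Control mice ate standard chow with 16% fat for 10 weeks. The other groups ate a 60% fat diet for the same time and were told apart by outcome: HFLN mice stayed lean and HFOB mice became obese. The series asks about ovarian gene expression after exposure to the diet, in animals that did and did not gain weight from it. Values are FPKM, a level scaled to transcript length and sequencing yield, and the authors gave 1 value per group with a lower and an upper bound. Single animals were not analysed here, so no SD and no test between animals is given, and the sources used here name neither the confidence level of the bounds nor the depth of the libraries. In whole tissue, fewer cells of a type and less RNA per cell cannot be told apart.

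NRF2, encoded by Nfe2l2, is held in the cytoplasm by KEAP1 and degraded. Oxidants and electrophiles modify KEAP1, NRF2 then accumulates, pairs with a small MAF protein and binds antioxidant response elements in genes for glutathione synthesis, thioredoxin reduction, NADPH supply and haem breakdown. In the ovary, steroid synthesis, ovulation and the regression of corpora lutea are known sources of reactive oxygen species. Some of these genes, Srxn1 and Hmox1 among them, are also known to respond to AP-1, the FOS and JUN dimers that bind a related but shorter site.

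The promoters of the members were read for both kinds of site. RefSeq windows of GRCm38.p6, the assembly behind mm10, run from 250 bases before to 50 bases after an annotated start site, and 7 of the 10 members had at least 1, with 9 windows in all. Hmox1, Gclc and Gsr had none. Each window was searched on both strands for TGACNNNGC, a core of the antioxidant response element, and for TGANTCA, an AP-1 site. The windows of Srxn1 and Prdx1 are shown whole because both genes held both motifs while their levels on the diet, given further on, were unlike. Capitals mark the matches, and every core match lies on the opposite strand, so it reads GCNNNGTCA here.
Srxn1, chr2:152105274-152105573, plus strand: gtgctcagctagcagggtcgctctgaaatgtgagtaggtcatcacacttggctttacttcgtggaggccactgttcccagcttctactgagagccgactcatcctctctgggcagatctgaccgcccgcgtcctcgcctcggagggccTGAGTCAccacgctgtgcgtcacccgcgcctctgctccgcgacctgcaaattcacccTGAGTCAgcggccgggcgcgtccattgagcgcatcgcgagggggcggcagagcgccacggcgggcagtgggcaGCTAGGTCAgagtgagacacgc
Prdx1, chr4:116685349-116685648, plus strand: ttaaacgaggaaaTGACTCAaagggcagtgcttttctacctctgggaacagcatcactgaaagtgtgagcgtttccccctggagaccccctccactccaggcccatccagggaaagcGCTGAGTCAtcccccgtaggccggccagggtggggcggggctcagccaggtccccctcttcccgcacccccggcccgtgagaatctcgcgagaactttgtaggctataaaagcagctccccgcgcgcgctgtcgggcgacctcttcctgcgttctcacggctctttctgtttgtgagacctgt

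The Srxn1 window held 2 AP-1 sites, which begin at -102 and -45 from the start site, and a core match at 29 to 37 bases after it. The site at -45 is followed by gc, so it differs from the searched core only in having G for its first C. Cores with G at that place were not searched for, so this site is marked as AP-1 only. The Prdx1 window also held 2 AP-1 sites, and the one at -131 to -125 lies inside its core match at -133 to -125. Such overlap of both motifs was found in 0.454% of all 32851 windows, 2 or more AP-1 sites in 0.460%, and both motifs at any distance in 1.17%. A core match alone was present in 3 further members, shown with 8 bases on each side.
Gclm, chr3:122245415-122245439, plus strand: tcccgggcGCACCGTCAactctcac
Txnrd1, chr10:82859106-82859130, plus strand: ggatttttGCTTTGTCAttctgaca
G6pdx, chrX:74428921-74428945, minus strand: gcgggtcaGCTCAGTCAaagcacac

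A core match stood in 12.4% of all windows and an AP-1 site in 7.81%. The match of Txnrd1 is in 1 of its 3 windows, and the windows of Nqo1 and Slc7a11 held neither motif, which says only that these letters are not in them. The rows of Srxn1 and Prdx1 in the authors' table begin upstream of the annotated start, at 152105031 on chromosome 2 and 116684965 on chromosome 4, so these loci extend past the windows shown. Matches describe the sequence and do not show that a factor bound there.

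**Figure D1:**
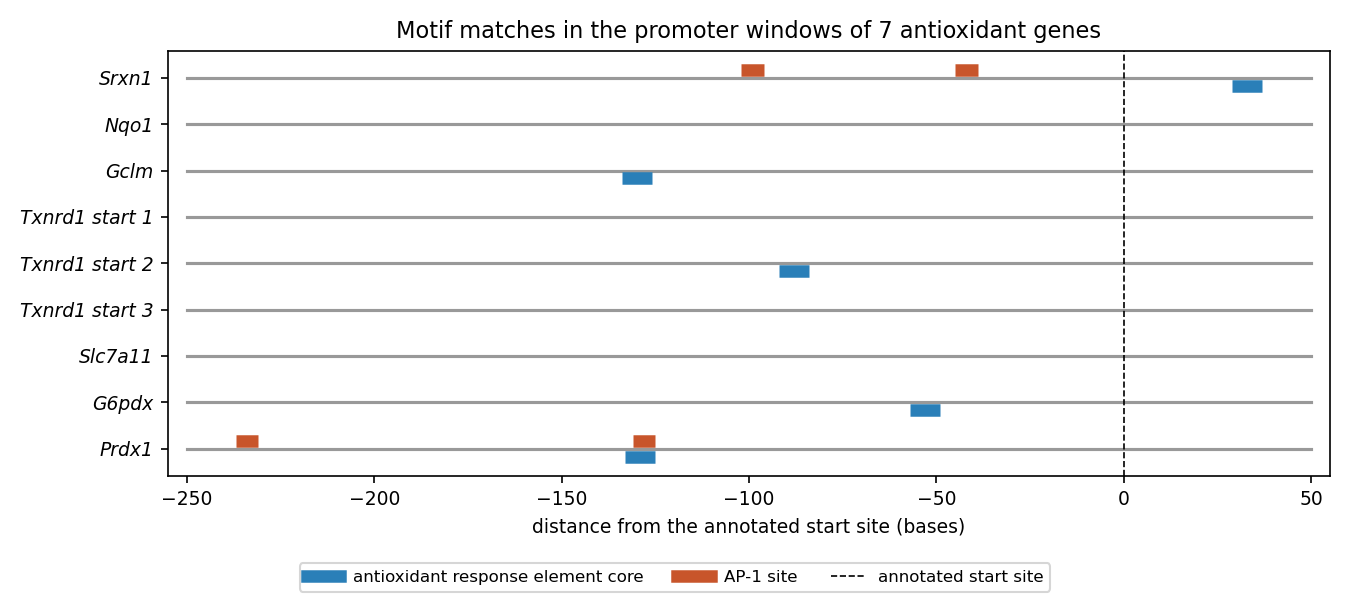
Positions of motif matches in the 9 RefSeq promoter windows of 7 members. The horizontal axis is the distance from the annotated start site in bases, grey lines are windows, blue blocks are antioxidant response element cores and orange blocks are AP-1 sites. Srxn1 and Prdx1 hold both motifs, and the core and an AP-1 site overlap in Prdx1.

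Srxn1 encodes sulfiredoxin, the enzyme that repairs peroxiredoxins oxidised to the sulfinic acid form. The gene spans 152105524 to 152111376 on chromosome 2, and gene spans here and for the other members are those of the RefSeq annotation of GRCm38.p6. Control was at 55.4 FPKM (deposited interval 26.4 to 84.5), HFLN at 17.4 (11.3 to 23.6) and HFOB at 13.9 (8.85 to 18.9). Control stood above both diet groups with intervals apart, and the diet groups overlapped. The ratio of control to HFLN was 3.18 and that of control to HFOB 4.00, or differences of -1.61 and -1.92 in log2(FPKM + 1), the scale of all log2 differences given here. Of the 10 members it alone met the rule used for calling a row, a fold of at least 2 on that scale with intervals that do not overlap. That rule called 0.283% of the 16932 rows considered in HFLN against control and 0.366% of 16929 in HFOB against control, and 0.219% and 0.272% as lower. With the intervals ignored, the fold alone was reached by 1.47% and 1.28% of rows and again by Srxn1 among the members. Among protein-coding rows with a mean of at least 5 FPKM, 7 of 9480 had a lower difference than Srxn1 in HFLN and 2 of 9478 in HFOB. Both comparisons share the control value, so a high control and low diet groups cannot be told apart.

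Hmox1 was second in both comparisons. It encodes haem oxygenase 1, the inducible enzyme that opens haem to biliverdin, iron and carbon monoxide, and lies at 75093618 to 75100593 on chromosome 8. Control was at 86.1 FPKM (46.7 to 126), HFLN at 45.8 (29.3 to 62.2) and HFOB at 45.3 (29.7 to 60.9). The diet groups were nearly level with each other and control was 1.88-fold and 1.90-fold above them, but the intervals overlapped and the gene was not called. The log2 differences were -0.90 and -0.91. Of the same protein-coding rows, 38 lay lower in each comparison.

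**Figure D2:**
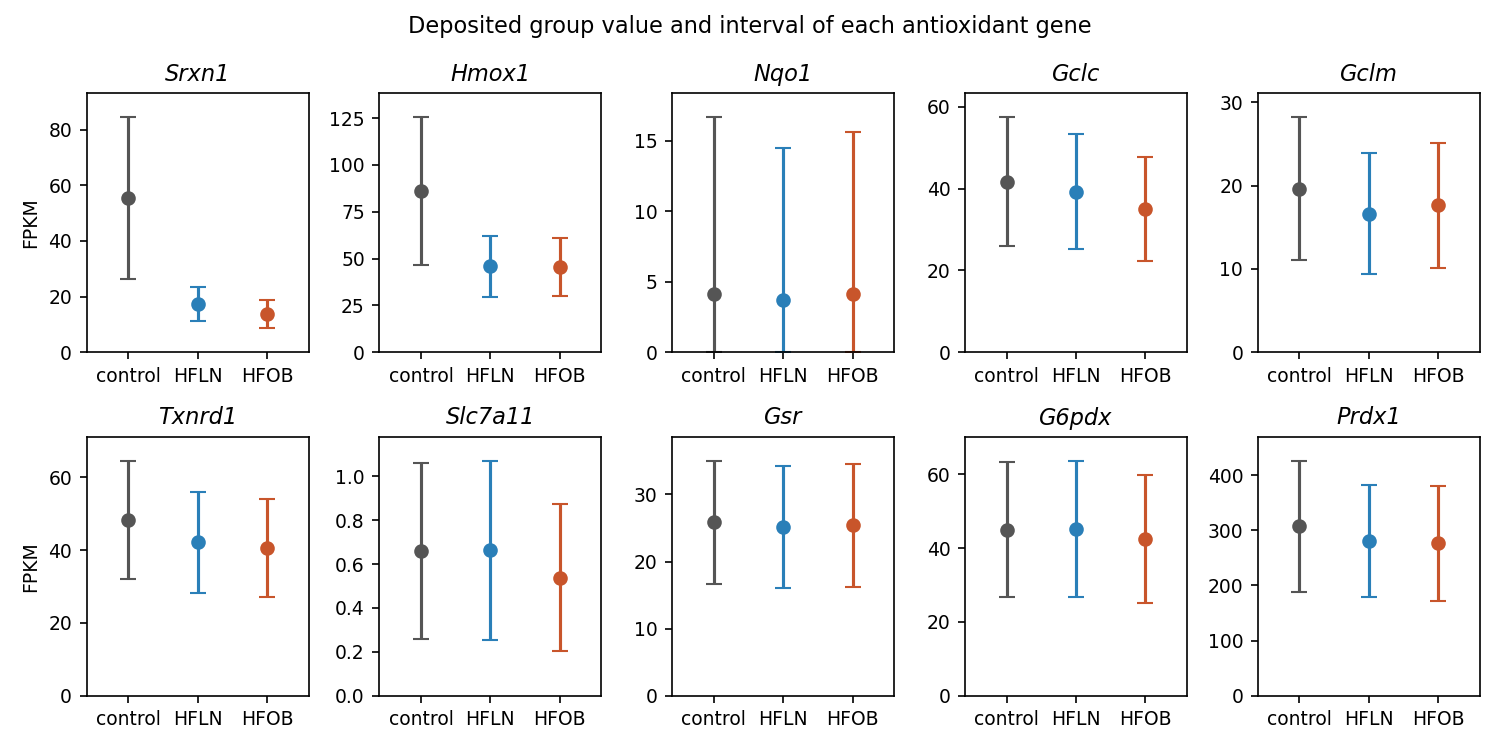
FPKM of the 10 members in control, HFLN and HFOB ovaries. Points are the deposited group values and bars the deposited intervals, each panel has its own axis from 0, and Srxn1 is the panel in which the bars of both diet groups (up to 23.6 and 18.9 FPKM) end below that of control (from 26.4).

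The remaining 8 members stayed close to control. Their log2 differences ran from -0.23 to 0.01 in HFLN and from -0.25 to -0.00 in HFOB, where the central 90% of protein-coding rows of at least 5 FPKM ran from -0.33 to 0.23 and from -0.29 to 0.20. None of the 8 lay outside those ranges, and all intervals overlapped between groups. Nqo1 and Slc7a11 lay below 5 FPKM, so the ranges come from rows unlike them. For Slc7a11 the added 1 FPKM shrinks any difference, and the intervals of Nqo1 reach 0, so little can be said of either.

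Glutathione synthesis and recycling were represented by 4 members. Gclc (chromosome 9, 77754535 to 77794489) encodes the catalytic subunit of glutamate-cysteine ligase, the first step of glutathione synthesis, with control at 41.7 FPKM (26.0 to 57.5), HFLN at 39.3 (25.3 to 53.2) and HFOB at 34.96 (22.3 to 47.7). In the same order Gclm (chromosome 3, 122245487 to 122267215), its modifier subunit, was at 19.6 (11.1 to 28.2), 16.6 (9.42 to 23.9) and 17.7 FPKM (10.2 to 25.2). The catalytic subunit was thus lowest in HFOB and the modifier lowest in HFLN, each within the intervals. Gsr (chromosome 8, 33653238 to 33698162), the reductase that returns oxidised glutathione to its reduced form, was nearly level at 25.9 (16.7 to 35.1), 25.2 (16.0 to 34.3) and 25.4 FPKM (16.2 to 34.5). Slc7a11 (chromosome 3, 50364936 to 50499087), the light chain of the cystine importer, was listed at 0.658 (0.257 to 1.06), 0.664 (0.256 to 1.07) and 0.538 FPKM (0.203 to 0.873). At that level it was below the minimum for a call in every group.

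Thioredoxin and peroxide handling were represented by Txnrd1 and Prdx1. Txnrd1 (chromosome 10, 82833951 to 82897724, overlapping Eid3), the cytosolic thioredoxin reductase, had 48.3 FPKM in control ovaries (32.1 to 64.6), 42.1 in those of HFLN mice (28.2 to 56.0) and 40.5 in those of HFOB mice (27.0 to 54.0), lower in both diet groups by less than the intervals resolve. Prdx1 (chromosome 4, 116685599 to 116700000), a cytosolic peroxiredoxin and a substrate of sulfiredoxin, was the most abundant member per length, at 307 (187 to 426), 280.3 (179.5 to 381) and 276 FPKM (171 to 381). In log2 terms the difference of Prdx1 was -0.13 in HFLN and -0.15 in HFOB, against -1.61 and -1.92 for the enzyme that repairs it. The FPKM summed over Prdx1, Prdx2, Prdx3 and Prdx4, the peroxiredoxins of the class that sulfiredoxin acts on, was 758 for control, 695 for HFLN and 723 for HFOB. Set against Srxn1, that is 13.7, 39.8 and 52.1 FPKM of peroxiredoxin per FPKM of Srxn1, a ratio of RNA levels with no interval of its own. The sum changed little, so the ratio mainly restates the lower Srxn1 and is no separate result.

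NADPH supply and quinone reduction completed the list. G6pdx (chromosome X, 74409483 to 74428880), the first enzyme of the pentose phosphate pathway, was at 45.0 FPKM (26.7 to 63.4) in control, with HFLN at 45.3 (26.9 to 63.8) and HFOB at 42.4 (25.1 to 59.8). Its row covers a locus 3.12 times as long as the annotated gene, which also takes in Ikbkg. Nqo1 (chromosome 8, 107388225 to 107403205), a quinone reductase often used as a marker of NRF2 activity, was listed at 4.11 (0 to 16.7), 3.71 (0 to 14.5) and 4.10 FPKM (0 to 15.6). Its row lies in a locus of 302432 bases that also covers Nfat5, Nob1 and Wwp2, its intervals reach 0, and so its level is poorly determined in all 3 groups. A second row of Nqo1 had a mean of 0.169 FPKM.

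The width of the deposited intervals limits what could be seen. The distance from a value to its upper bound ranged from 33.1% to 62.3% of the value over groups and members other than Nqo1, for which it was at least 282%. If those relative widths held, the intervals of control and HFLN would part only at a ratio of 2.84 for Srxn1, 2.51 for Hmox1, 2.00 for Txnrd1 and 2.18 for Gclc, and at 4.13 for Slc7a11. The observed ratio passed that value for Srxn1 and for no other member, in HFLN as in HFOB. As the value is built from the same bounds, this restates which intervals were apart and is no separate result. A difference of the size seen in Hmox1 would thus not have been called in any of the 9 genes with such a value.

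**Figure D3:**
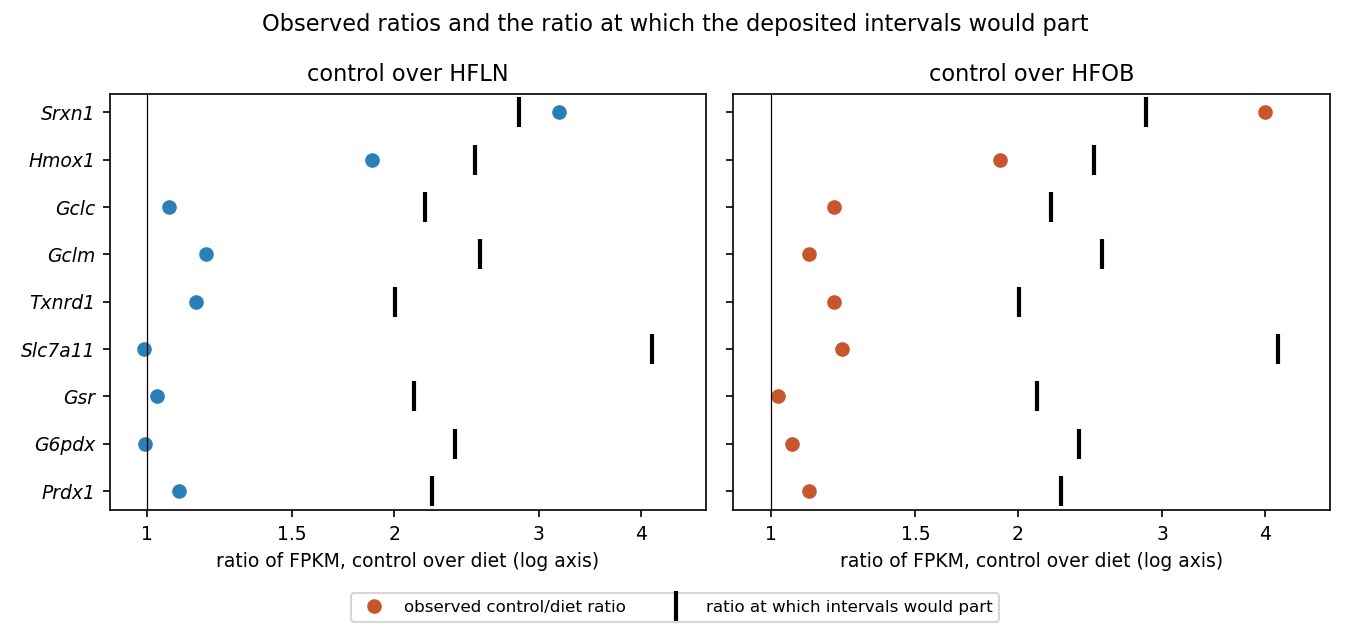
Ratio of control to diet FPKM for 9 members (points, log axis), beside the ratio at which the deposited intervals would part given their relative widths (bars). HFLN is on the left and HFOB on the right, and Nqo1 is left out because its control interval reaches 0. Only the points of Srxn1 (3.18 and 4.00) lie to the right of their bars, which restates that its intervals were apart from control.

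Whether Srxn1 moved with the other members was described over the whole list. Of the other 9 members, 7 were below control in HFLN and 9 in HFOB, where 49.9% and 53.0% of all rows considered were below it, and the count for HFOB includes Nqo1 at a log2 difference of -0.00. Slc7a11 is among the 9, though its row was too low to be among the rows considered. The median log2 difference of the 10 was -0.12 in HFLN and -0.15 in HFOB, and without Srxn1 and Hmox1 it was -0.10 and -0.13, beside medians of 0.00 and -0.01 over all rows considered. Over protein-coding rows of at least 5 FPKM, a level most members reach, the medians were -0.02 and -0.02. Most of these 9 were thus on the same side as Srxn1, and all but Hmox1 by no more than 0.25 on the log2 scale. Hmox1 lay 1.24 from Srxn1 in the plane of both log2 differences, and the other 8 lay farther, up to 2.47 for Gsr.

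The protein-coding genes nearest to Srxn1 in that plane, out of 9430 with at least 5 FPKM in control, were Timp1, Fosb, Rem2, Wnt7b and Arc. They lay between 0.0598 and 0.248 away, as the genes picked for the smallest distance. Of the 9430, 36 lay nearer than Hmox1, the nearest member at 1.24. Rem2 is a small RAS-like GTPase, Wnt7b a secreted Wnt ligand and Arc an immediate-early gene first known from neurons. The likeness rests on 3 group values per gene and on the same control animals. It also depends on the added 1 FPKM, because Fosb, Rem2, Wnt7b and Arc lay between 0.826 and 2.11 FPKM in the diet groups. As plain ratios of control to HFLN and to HFOB, Fosb was at 5.33 and 6.96 and Srxn1 at 3.18 and 4.00. The nearest genes were not searched again with another pseudocount. Timp1, an inhibitor of matrix metalloproteinases, had control at 597 FPKM (57.7 to 1135), HFLN at 192 (76.4 to 307) and HFOB at 163 (63.4 to 262), with intervals that overlap. Fosb, an AP-1 subunit, stood at 5.75 (2.38 to 9.12), 1.08 (0.268 to 1.89) and 0.826 FPKM (0.209 to 1.44) and was called in both comparisons. It was the 1 gene called of the 8 AP-1 genes listed, FOS and JUN family members and Atf3, where 0.283% and 0.366% of all rows were called. Of the 8, 7 were below control in each diet group, where 49.9% and 53.0% of all rows considered were below it. Their median log2 differences were -0.82 in HFLN and -0.66 in HFOB. Fosl2 was the exception, at 0.04 and 0.05. The part of AP-1 in the Srxn1 result was not tested.

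Between HFOB and HFLN, both on the high-fat diet, Srxn1 stood lower in HFOB and the other members stayed near 0. The rule called 0 of the 10 members in HFOB against HFLN, where it called 0.195% of 16931 rows and the fold alone was reached by 1.23% of rows and again 0 members. Srxn1 was 1.26-fold lower in HFOB, a log2 difference of -0.31, with overlapping intervals. That value lay outside the central 90% of protein-coding rows of at least 5 FPKM, which ran from -0.21 to 0.23, and 238 of those 9479 rows were lower. The other 9 lay inside that range and ran from -0.16 for Gclc to 0.11 for Nqo1, 6 lower and 3 higher, where 52.2% of rows were lower, and Hmox1 differed by -0.01. Without values for single animals no p-value can be given, so equality of the diet groups is not shown.

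Of the 9 regulators of NRF2, Maff stood lowest against control. None of the 9 was called in any comparison, which with 0.195% to 0.366% of all rows called says nothing about these genes. Nfe2l2 itself was at 96.4 FPKM (63.9 to 129) in control, with HFLN at 81.6 (54.0 to 109) and HFOB at 78.3 (52.0 to 105), and Keap1, in that order, at 34.2 (22.0 to 46.3), 34.8 (22.9 to 46.8) and 37.6 (24.6 to 50.7). RNA levels do not measure the NRF2 protein, which is regulated mainly by its breakdown. The lowest of the list was Maff, a small MAF partner that is itself inducible, at 11.3 (5.59 to 17.0), 5.83 (2.53 to 9.13) and 5.20 FPKM (2.21 to 8.20), log2 differences of -0.85 and -0.99 with overlapping intervals. Of the protein-coding rows of at least 5 FPKM, 43 were lower in HFLN and 29 in HFOB. The highest was the row that joins Mafg with Sirt7, at 0.16 and 0.17.

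Genes that act beside the members were read from 6 further lists. With the regulators they made 63 rows, of which 45 were below control in HFLN and 36 in HFOB, where 49.9% and 53.0% of all rows were below it. None of the 63 was called in any of the 3 comparisons, which at the shares called over all rows, 0.283%, 0.366% and 0.195%, says nothing about them. Their median log2 difference was -0.10 in HFLN and -0.03 in HFOB, and 59 and 61 of them lay within 0.5 of control in either direction. In the peroxiredoxin and thioredoxin list the lowest was Txn1, cytosolic thioredoxin, at 213 FPKM in control and 169 in HFLN, and the highest Txnip, a thioredoxin-binding arrestin, at 375 in control and 467 in HFOB. Among glutathione genes Chac1, which degrades glutathione and belongs to the ATF4 response, had control at 2.64 FPKM (0.574 to 4.70), HFLN at 1.18 (0.153 to 2.21) and HFOB at 0.668 (0.0738 to 1.26). Its log2 difference of -1.12 in HFOB passed the fold but its intervals overlapped. Ggt1, at the other end of that list at 0.23 in HFOB, was below 1 FPKM in every group.

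Pgls of the pentose phosphate pathway was the lowest of the NADPH genes, with control at 196 FPKM, HFLN at 148 and HFOB at 197, and the highest was Idh1, at 400.0, 428 and 366. Genes for superoxide and peroxide removal stayed near control: Sod1, the cytosolic superoxide dismutase, stood at 728, 660.3 and 763 FPKM and Sod2, the mitochondrial form, at 46.0, 50.7 and 44.4. Among genes of haem and iron the lowest was Ftl1, ferritin light chain, with control at 2778 FPKM (0 to 5582), HFLN at 1727 (837 to 2617) and HFOB at 2056 (926 to 3186), and the highest the iron exporter Slc40a1 at 24.3, 24.9 and 27.4. Of further NRF2 targets, Gsta4, a glutathione transferase for lipid aldehydes, had control at 126 FPKM (83.2 to 169), HFLN at 93.5 (60.8 to 126) and HFOB at 90.9 (58.9 to 123). A row that joins Ces1d with Ces1e and Ces1f was the highest at log2 0.66 in HFLN, with intervals that reach 0. The row that joins Gstm1 with Gstm2 and Gstm4 had a status other than OK in HFOB and was left out of calls there.

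**Figure D4:**
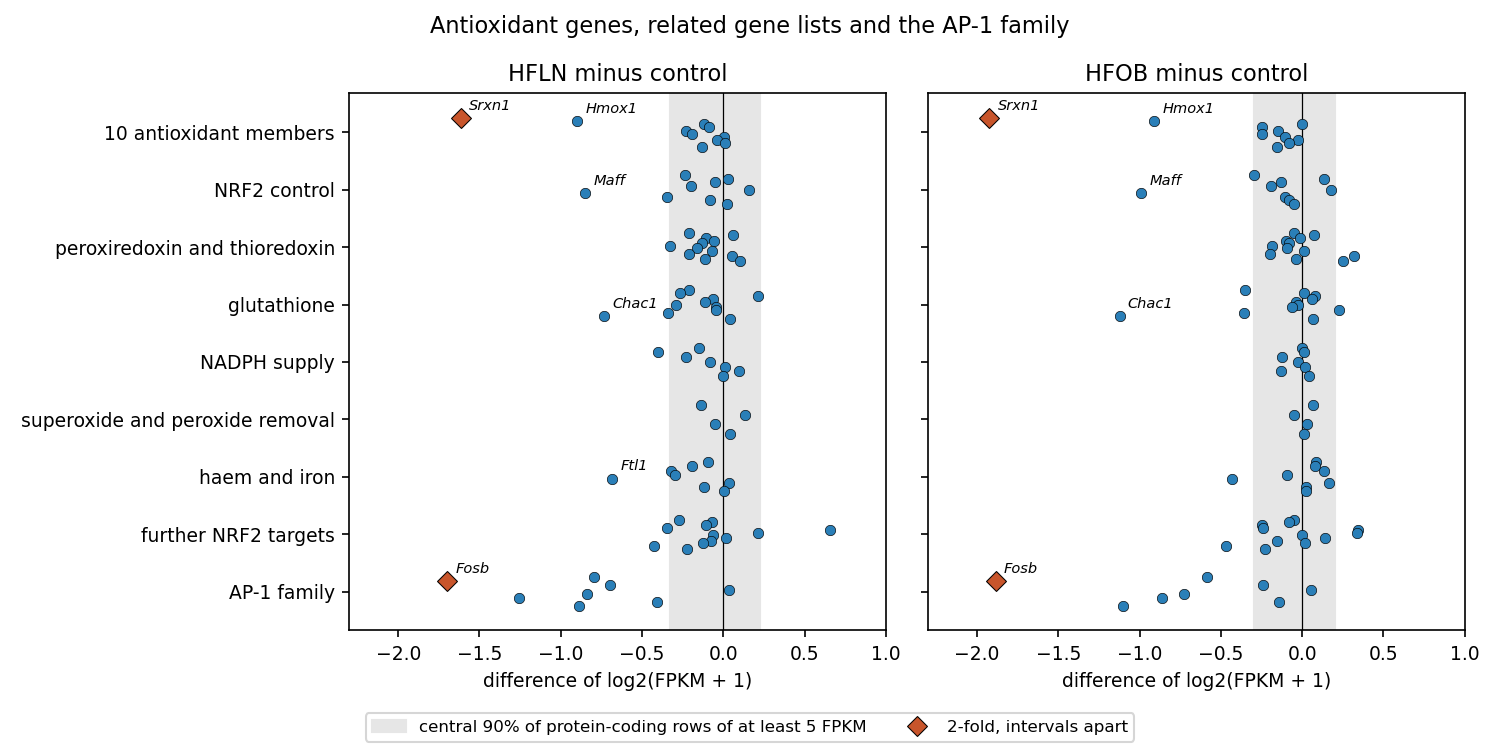
Differences of log2(FPKM + 1) from control in HFLN (left) and HFOB (right) for the 10 members, 7 related lists and the AP-1 family, 1 point per row. Grey spans the central 90% of protein-coding rows of at least 5 FPKM and orange diamonds mark called rows. Srxn1 and Fosb are the called rows in both panels, and Hmox1, Maff and Chac1 are among the rows left of the grey band.

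Markers of cell types were read for their levels beside Srxn1 and Hmox1. Of all rows considered, 49.9% were below control in HFLN and 53.0% in HFOB, which the counts of lower markers are to be read against. The 5 granulosa markers summed to 2067 FPKM for control, 1694 for HFLN and 1816 for HFOB, mostly Inha, with 5 of 5 below control in HFLN and 3 of 5 in HFOB. The lowest was Cyp19a1, the aromatase that makes oestrogens, at 20.7 (13.3 to 28.0), 14.5 (8.60 to 20.3) and 12.2 FPKM (7.36 to 17.0), log2 differences of -0.49 and -0.72. The highest in that list were Amh, at -0.04 and 0.04, and the row that joins Foxl2 with Faim, at -0.07 and 0.00.

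The 5 theca and luteal markers summed to 7346, 6442 and 6532 FPKM, mostly Cyp11a1 and Hsd3b1, with 3 of 5 below control in HFLN and 4 of 5 in HFOB. Cyp17a1, the theca enzyme of androgen synthesis, had control at 346 FPKM (154 to 539), HFLN at 183 (97.5 to 269) and HFOB at 191 (103 to 280). Its log2 differences were -0.91 and -0.85, with overlapping intervals, and 35 and 42 protein-coding rows were lower. Star, which carries cholesterol into mitochondria, was the highest of the list, at 0.64 and 0.19. Cyp17a1 and Cyp19a1 were the lowest of their lists, while Star stood higher and Amh and the Foxl2 row were nearly level. None of these 10 markers was called against control, which at 0.283% and 0.366% of all rows called says nothing about them. The part of granulosa, theca and luteal cells in the Srxn1 and Hmox1 results was not tested.

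The 4 oocyte markers summed to 113, 115 and 121 FPKM, with 1 of 4 below control in HFLN and 0 of 4 in HFOB. The 6 macrophage markers, whose cells express Hmox1, summed to 232 FPKM for control, 229 for HFLN and 239 for HFOB, with 4 of 6 below control in HFLN and 1 of 6 in HFOB. Their log2 differences stayed between -0.05 and 0.23. Most of each sum came from C1qa and from a row that joins Cd68 with Eif4a1, at 92.7, 91.0 and 92.4 FPKM. That row cannot be read as Cd68 alone. The part of macrophages in the Hmox1 result was not tested. The 4 red blood cell rows summed to 240.0, 135 and 178 FPKM, all 4 below control in both groups, with the haemoglobin rows making up nearly all of it, Slc4a1 at no more than 0.00472 FPKM and none at 0. The part of red blood cells in the Hmox1 result was not tested. The 5 adipocyte markers summed to 111, 116 and 186 FPKM, mostly Fabp4 at 77.2, 87.2 and 139, with 3 of 5 below control in HFLN and 1 of 5 in HFOB. Lep, the adipocyte hormone leptin, was at 0.223 (0 to 0.455), 0.332 (0.0392 to 0.625) and 2.101 FPKM (0.759 to 3.44). It was the 1 of these 5 called, higher in HFOB against control and against HFLN, where 0.366% and 0.195% of all rows were called. The 4 oviduct and cilia markers summed to 413, 507 and 337 FPKM, with 0 of 4 below control in HFLN and 4 of 4 in HFOB. These sums were mostly Ovgp1, whose interval in HFLN ran from 0 to 937 FPKM. The part of adipocytes and of oviduct and ciliated cells in the Srxn1 result was not tested.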

How the data were processed

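RNA of whole ovaries from 9 mice was sequenced from strand-specific messenger RNA libraries, per the labels' protocols. Per the submitters' processing notes, the tools were Cuffdiff 2.2.1.3, Cufflinks 2.2.1.0, TopHat2 2.1.0 and Trimmomatic 0.32.3, and the genome build was mm10. For the annotation, library scaling, strand setting and depth nothing is stated in these sources, and reads of overlapping genes may be shared. The authors deposited FPKM, 1 value per group with a lower and an upper bound and a status, per the file headers. No count, SD or test between animals can be had from them, and the bounds are the one measure of error.

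Of 36886 RefSeq identifiers, 99.2% matched the RefSeq table of GRCm38.p6, which gave the symbols and gene spans, counted from 1. Motifs were searched in RefSeq promoter windows of that assembly. Differences were taken on log2(FPKM + 1), which understates low genes. A row was called at a difference of at least 1 with intervals apart, among rows that reached 1 FPKM in any group and had the status OK in both groups compared. This was computed with Python 3.11.15, pandas 2.3.3 and numpy 2.4.6 and checked on simulated data. The simulated rows had the same relative interval width throughout and large changes. The check thus shows that the rule runs as written, not how often it errs on the deposited intervals. Alternatives were another pseudocount, fold, filter, scaling and row choice.

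The members and all lists were chosen with earlier results of these data known. All members are named. From each related list the genes with the highest and the lowest difference from control and any called are named, and the 5 genes nearest to Srxn1. Nfe2l2, Keap1, Prdx2 to Prdx4, Sod1, Sod2 and single cell type markers were named in addition, with values known.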

Additional observations from a re-analysis of the deposited data

How the results depend on the processing

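Of 42 values recomputed under the alternatives, 38 stayed within 0.05 on the log2 scale or at the same count, 4 moved further and 0 changed sign. Some could not move further: Srxn1 has 1 row, so summing rows left it as it was, and scaling shifted log2 values by about 0.02 or less. The tally is therefore not a measure of robustness. With a pseudocount of 0.1 FPKM the median difference of the members in HFOB against control was -0.20 in place of -0.15, and that of Srxn1 -1.99 in place of -1.92. The mean in place of the median gave -0.33 in HFLN and -0.39 in HFOB against control, where Srxn1 and Hmox1 weigh more. The count of called members was 1, 1 and 0 in HFLN and HFOB against control and HFOB against HFLN under each alternative, among them a fold of 1.5 and a fold with the intervals ignored. Several alternatives could hardly change that count. The fold of 1.5 kept the interval rule, and at the deposited widths intervals part from control only at ratios of 2.00 or more. The filter touched only Slc7a11 and the summing of rows only Nqo1. No paired analysis was possible because the table holds 1 value per group and no replicate columns. No replicate could be left out for the same reason. Without depth or single animals, the limit of what can be seen is set by the deposited intervals.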
